A study of Mus musculus with 14 samples.

Results

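The genes described here write, read and recruit methylation of lysine 9 of histone H3 (H3K9), and 2 of them guard parental imprints. They are 10 genes, chosen by name, of 54446 gene identifiers in the expression files: the imprint-guarding zinc finger genes *Zfp57* and *Zfp445*, the corepressor gene *Trim28*, the methyltransferase genes *Setdb1*, *Ehmt1*, *Ehmt2*, *Suv39h1* and *Suv39h2*, and the reader genes *Cbx1* and *Cbx5*. All 10 matched 1 gene identifier each and all 10 passed the filter on low values, which left 18232 genes for testing.

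RNA-seq was available for 14 libraries of E14 mouse embryonic stem (ES) cells, 2 replicates in each of 7 groups. Wild-type cells were untreated (0 h) or held in the mTOR inhibitor INK128 (mTORi) for 24, 72 or 144 h, which induces a dormant state like that of the diapaused embryo. *Tet1/2* double-knockout (DKO) cells, made in the same line by deleting between guide pairs in *Tet1* and *Tet2* and grown from single sorted cells, were collected at 0, 24 and 72 h, so no DKO group matches the wild-type 144 h group. All groups were grown in serum and LIF without feeders. The study describes the DKO cells as a single line, and nothing in the sources used here ties the 2 replicates to separate clones, so p-values measure only the spread between these libraries.

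H3K9 methylation marks silent chromatin. At imprinted loci, ZFP57 and ZFP445 bind the methylated parental copy and recruit TRIM28 (KAP1), which brings SETDB1, which places H3K9 trimethylation; the same TRIM28 and SETDB1 pair silences many retroviral elements in ES cells. EHMT1 (GLP) and EHMT2 (G9a) act as a dimer that places H3K9 mono- and dimethylation in euchromatin, SUV39H1 and SUV39H2 trimethylate H3K9 in pericentromeric heterochromatin, and the HP1 proteins CBX5 (HP1α) and CBX1 (HP1β) bind the mark.

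Values are given on 2 scales. The deposited TPM (transcript levels per length, scaled to one fixed sum) have the same sum in every library, so they measure a gene's share of the transcripts. Spike-in normalized TPM multiply each library by a single factor, at most 2.81, taken from the study's spike-in normalized table. The study took RNA from equal cell numbers, used ERCC RNAs, and made libraries from a fixed mass of total RNA. It does not state at which step the ERCC RNAs were added. This scale is meant to follow the amount of RNA, but the files hold 0 ERCC entries and the factors could not be recomputed. The 2 DKO replicates had unlike factors, 2.24 and 1.36 (24 h) and 2.53 and 1.73 (72 h), and their spike-in values lie far apart. Over all genes tested, the median spike-in log2 fold change in wild type was −0.33 (24 h), −0.33 (72 h) and −0.83 (144 h), and in DKO cells −0.49 (24 h) and −0.12 (72 h). It was 0.29, 0.10 and 0.49 for DKO against wild type at 0, 24 and 72 h. In deposited TPM these medians lay between −0.01 and 0.14. In bulk RNA, fewer cells of a type and less RNA per cell cannot be told apart. Log2 fold changes are on the log2(TPM + 1) scale, and a gene was called where the Benjamini-Hochberg adjusted p of limma over all 18232 genes was under 0.05. Pairs of libraries without overlap were common. On the spike-in scale 47.8%, 55.3% and 82.1% of all genes lay below untreated wild type at 24, 72 and 144 h. In DKO cells 46.3% and 30.1% did at 24 and 72 h. In deposited TPM 31.6%, 28.3% and 30% lay below and 32.4%, 33.8% and 37.3% above in wild type. In DKO cells 28.4% and 23.6% lay below and 28.2% and 44.2% above.

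*Tet2* checked the genotype labels: it stood at 99.7 and 96.0 deposited TPM in untreated wild type and at 19.1 and 22.2 in untreated DKO cells, and in DKO cells it was 21.1%, 16.0% and 17.7% of wild type at 0, 24 and 72 h. *Tet1*, summed over the whole gene, was still 77.0%, 70.2% and 80.8% of wild type in deposited TPM and 94.7%, 78.0% and 108.9% with spike-in normalization, and a gene sum does not separate the deleted exons from the rest. The 10 ES cell markers, at 0 in no library, summed to between 4575 and 6853 deposited TPM. The 11 primitive endoderm markers summed to between 102.8 and 1274 deposited TPM; they stood at 982 and 1274 in wild type at 24 h, against 284 and 348 (0 h), and at 442 and 492 in DKO cells at 24 h. In deposited TPM the ES cell sum was highest at 144 h (6853 and 6538). On the spike-in scale it was 7336 and 6538 there, against 9927 and 11448 in untreated wild type. The 9 trophectoderm markers summed to 51.5 and 72.9 in untreated wild type, 148.4 and 91.0 at 24 h, and 28.5 to 36.9 later. In DKO cells they summed to 61.3 and 58.8 (0 h) and 79.4 and 77.1 (24 h). The 8 neural and mesoderm markers went from 84.9 and 95.8 to 36.6 and 34.6 at 24 h in wild type, and from 75.0 and 83.2 to 31.7 and 29.6 in DKO cells. Fibroblast markers did not exceed 17.8 in any library. Of 24 DNA replication genes, 23 were called lower at 144 h in wild type on the spike-in scale (all genes 50.5%), and 4 lower and 1 higher in deposited TPM (all genes 11.7% and 15.6%). At 24 h 11 of the 24 were lower in wild type and 10 in DKO cells in deposited TPM (all genes 14.1% and 13.3%), among them *Pcna* (−1.16 and −0.97) and *Cdc6* (−1.03 and −0.99), and 3 and 14 on the spike-in scale (all genes 8.73% and 18.7%). They summed to 3232 and 3043 deposited TPM in untreated wild type and to 2765 and 2576 at 24 h. The part of these cell type markers in the 24 h results, and of the replication genes in the results at 24 h and later, was not tested.

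Promoters of 5 members are shown: *Trim28*, *Setdb1*, *Suv39h1* and *Cbx1*, which were called at 24 h in deposited TPM in at least 1 genotype, and *Ehmt2*, which had the largest fitted fall at 144 h. Each is the 250 bases before a RefSeq start on GRCm38.p6, written 5′ to 3′ along the gene's strand, and capitals mark matches on either strand to TGCCGC, the ZFP57 recognition motif, to CACGTG, the E-box core bound by MYC and TFE3, or to TTGGCGC or TTCCCGC, the E2F cores.

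Trim28 chr7:13023902-13024151 (+): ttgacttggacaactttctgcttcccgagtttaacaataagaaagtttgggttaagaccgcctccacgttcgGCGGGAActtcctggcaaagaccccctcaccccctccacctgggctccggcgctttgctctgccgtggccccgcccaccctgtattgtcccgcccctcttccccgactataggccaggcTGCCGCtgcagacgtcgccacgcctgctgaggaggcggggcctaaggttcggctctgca
Setdb1 chr3:95357203-95357452 (-): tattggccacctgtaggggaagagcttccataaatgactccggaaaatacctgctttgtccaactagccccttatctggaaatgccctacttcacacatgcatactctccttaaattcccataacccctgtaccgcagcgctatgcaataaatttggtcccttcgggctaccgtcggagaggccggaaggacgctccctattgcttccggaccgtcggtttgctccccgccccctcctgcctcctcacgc
Ehmt2 chr17:34898224-34898473 (+): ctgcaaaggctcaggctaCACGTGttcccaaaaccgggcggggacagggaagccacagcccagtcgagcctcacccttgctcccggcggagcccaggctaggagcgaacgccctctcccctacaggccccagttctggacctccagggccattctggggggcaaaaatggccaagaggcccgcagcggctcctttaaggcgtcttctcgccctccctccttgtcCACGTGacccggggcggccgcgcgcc
Suv39h1 chrX:8074761-8075010 (-): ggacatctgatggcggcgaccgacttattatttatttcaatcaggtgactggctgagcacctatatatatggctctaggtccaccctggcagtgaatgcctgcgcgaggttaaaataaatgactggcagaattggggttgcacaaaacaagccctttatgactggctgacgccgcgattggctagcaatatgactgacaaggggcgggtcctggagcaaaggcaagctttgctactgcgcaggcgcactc
Cbx1 chr11:96788885-96789134 (+): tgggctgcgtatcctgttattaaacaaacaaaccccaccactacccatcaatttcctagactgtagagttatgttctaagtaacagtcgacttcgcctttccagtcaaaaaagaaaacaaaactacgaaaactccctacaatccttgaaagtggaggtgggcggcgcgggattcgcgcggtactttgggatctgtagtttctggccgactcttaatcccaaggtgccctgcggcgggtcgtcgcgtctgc

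RefSeq lists 15 promoters for the 10 members. The ZFP57 motif was in 3 of 15 (1 each of *Trim28*, *Ehmt2* and *Suv39h1*), against 8.68% of all 32851 promoters searched the same way. The E-box core was in 3 of 15 (both of *Ehmt2* and 1 of *Cbx5*; 6.02% of all), and an E2F core in 2 of 15 (*Trim28* and *Suv39h2*; 5.62% of all). The *Trim28* window above holds the ZFP57 motif 59 bases and the E2F core 178 bases before the start, the *Ehmt2* window holds 2 E-box cores, and those of *Setdb1*, *Suv39h1* and *Cbx1* hold none of these letters. The *Ehmt2* window on its second start, not printed, has 1 ZFP57 motif that shares letters with an E-box core. Each of these strings holds a CG. Over all promoters the median ratio of observed to expected CG pairs was 0.37 and the median GC content 52.4%. The members' windows with a match had ratios of 0.64 to 1.02 and GC contents of 59.2% to 84%. The part of this composition in the matches was not tested. A match is a string of letters in a window and shows no binding.

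**Figure D1:**
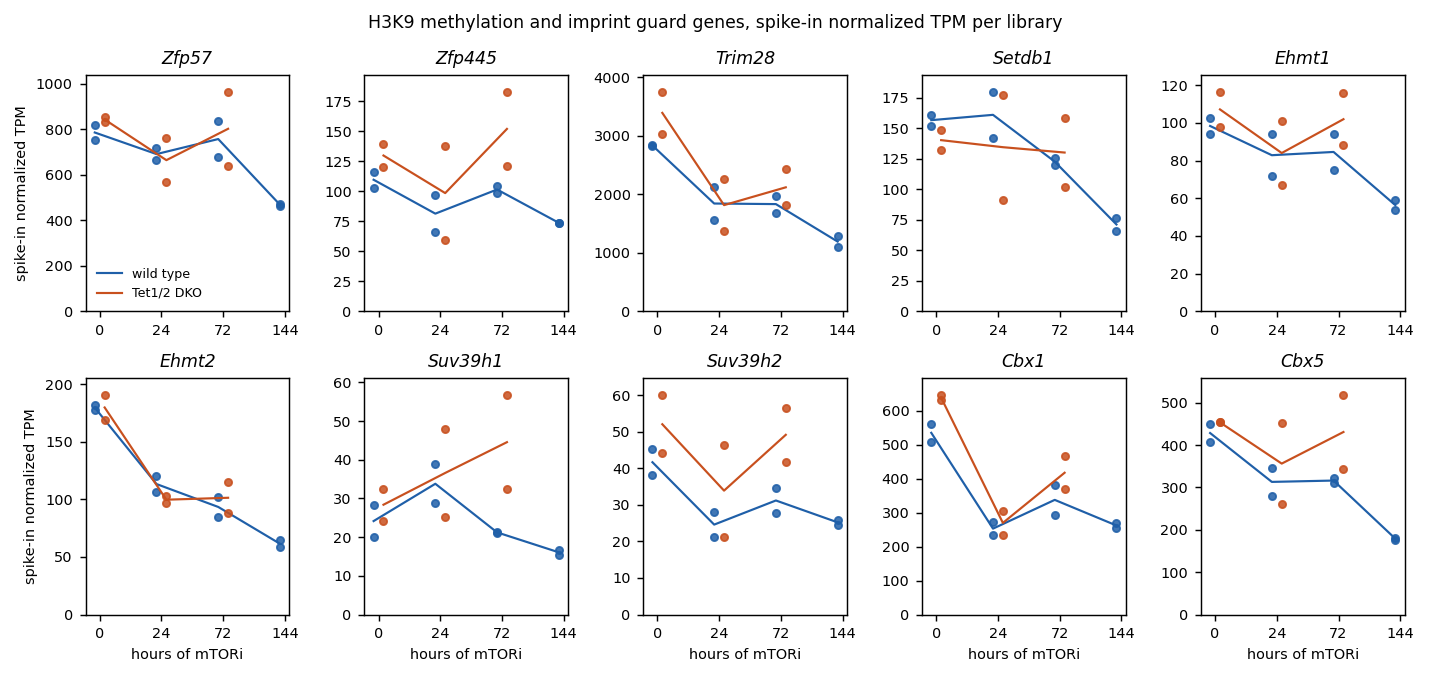
Spike-in normalized TPM (y axis, from 0) of each member against hours of mTORi (x axis, time points evenly spaced and not to scale); points are single libraries, lines join group means of 2, blue is wild type and orange *Tet1/2* DKO. At 144 h both wild-type libraries lie below both untreated wild-type libraries for all 10 genes, as for 82.1% of all genes tested.

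The imprint guards differed in level by nearly an order of magnitude. *Zfp57* (chromosome 17, bases 37001163 to 37010635, mm10) made up 86.4% to 89.5% of the summed TPM of *Zfp57* and *Zfp445* in the wild-type groups. *Zfp57* read 817 and 753 spike-in normalized TPM in untreated wild type, 665 and 715 (24 h), 837 and 676 (72 h), and 472 and 464 (144 h). Both 24 h libraries lay below the untreated pair and the 72 h libraries on either side of it, and the level stood at 59.6% of the untreated mean at 144 h (log2 fold change −0.74, SE 0.26, limma adjusted p = 0.026). This call was lost when any 1 of the 4 libraries of the comparison was left out (log2 fold change −0.80 to −0.69, adjusted p 0.098 to 0.13). The share of *Zfp57* among transcripts moved the other way: deposited TPM were 387 and 357 (0 h), 464 and 386 (24 h), 506 and 453 (72 h) and 441 and 464 (144 h). At 72 h and 144 h both libraries lay above both untreated ones, with log2 fold changes of 0.37 (SE 0.13) and 0.28 (SE 0.13) that were not called; with a replicate block within each genotype the 72 h value was called (adjusted p = 0.025; its alternatives ran from 0.025 to 0.24). In DKO cells *Zfp57* had 303 and 351 deposited TPM at 0 h, 341 and 417 (24 h) and 380 and 371 (72 h), below the wild-type mean at each time. Spike-in normalized, DKO cells stood at 107.3%, 96.1% and 106% of wild type, with both libraries higher at 0 h (52.9% of all genes). No DKO comparison was called on either scale.

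*Zfp445* (chromosome 9, bases 122844529 to 122866006) rose late as a share of transcripts in both genotypes. Its deposited TPM were 48.8 and 55.1 in untreated wild type, 46.0 and 52.3 (24 h), 63.1 and 66.2 (72 h) and 68.8 and 73.9 (144 h). Both 72 h and both 144 h libraries were above both untreated ones, and the 144 h change of 0.45 (SE 0.14) was called (adjusted p = 0.035, alternatives 0.016 to 0.17). DKO cells gave 49.6 and 50.6 (0 h), 61.6 and 43.7 (24 h) and 72.1 and 70.2 (72 h), a called change of 0.50 (SE 0.14, adjusted p = 0.025, alternatives 0.011 to 0.11). Each of these calls was lost when any 1 library of its comparison was left out (log2 fold change 0.37 to 0.54 in wild type and 0.48 to 0.52 in DKO cells). On the spike-in scale the sign was opposite in wild type, with 103.0 and 116 (0 h) against 73.6 and 73.9 (144 h). This log2 fold change of −0.56 (SE 0.33) was called as a fall only with the replicate block within each genotype (limma adjusted p = 0.040). Its lowest alternative, 0.035, is the call in deposited TPM given above, which is a rise.

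*Trim28* (chromosome 7, bases 12999114 to 13031035) was the most abundant member, at 959 to 1344 deposited TPM in every library, whereas *Setdb1*, its methyltransferase partner, did not exceed 99.2. Its spike-in normalized TPM were 2838 and 2829 in untreated wild type, 1564 and 2121 (24 h), 1979 and 1686 (72 h) and 1289 and 1095 (144 h). No treated library overlapped the untreated pair (all genes 47.8%, 55.3% and 82.1% lower at 24, 72 and 144 h). The 24 h change of −0.64 (SE 0.29) was called only on centred values or with the within-genotype block (block adjusted p = 0.048, alternatives 0.041 to 0.66), and the 144 h mean was 42.1% of the 0 h mean (log2 fold change −1.25, SE 0.29, adjusted p = 0.0026). In DKO cells it read 3746 and 3036 (0 h), 2262 and 1368 (24 h) and 2430 and 1809 (72 h), again without overlap with 0 h. The DKO change at 24 h was called (−0.94, SE 0.29, adjusted p = 0.031); without DKO 0 h replicate 1, DKO 0 h replicate 2 or DKO 24 h replicate 2 it was not (log2 fold change −0.79, −1.09 and −0.58).

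*Trim28* fell in share as well in DKO cells. Deposited TPM were 1344 and 1340 in untreated wild type, against 1091 and 1144 (24 h), 1198 and 1131 (72 h) and 1205 and 1095 (144 h). They were 1331 and 1278 in untreated DKO cells, 1012 and 1008 (24 h) and 959 and 1047 (72 h). The DKO changes of −0.37 at 24 h (SE 0.098, adjusted p = 0.020, alternatives 0.014 to 0.091) and −0.38 at 72 h (SE 0.098, adjusted p = 0.018, alternatives 0.013 to 0.12) were called. The 24 h call was lost without any 1 of its 4 libraries (log2 fold change −0.40 to −0.34), and the 72 h call without DKO 0 h replicate 1, DKO 0 h replicate 2 or DKO 72 h replicate 1 (−0.35, −0.41 and −0.32). The wild-type changes of −0.26, −0.21 and −0.22 were not called, except at 24 h with the replicate block within each genotype (adjusted p = 0.047, alternatives 0.047 to 0.24). *Zbtb45*, annotated within the *Trim28* interval on the opposite strand, averaged 29.2 deposited TPM.

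*Setdb1* (chromosome 3, bases 95323525 to 95357202) rose in share at 24 h in both genotypes and its share was called at no later time. Deposited TPM in wild type were 72.0 and 76.2 (0 h), 99.2 and 96.8 (24 h), 75.996 and 80.2 (72 h) and 71.0 and 66.1 (144 h). DKO cells had 52.7 and 55.5 (0 h), 79.3 and 67.4 (24 h) and 62.5 and 58.9 (72 h), the last still above the untreated pair. The 24 h change was 0.40 in wild type (SE 0.090, adjusted p = 0.0080, alternatives 0.0073 to 0.050) and 0.43 in DKO cells (SE 0.090, adjusted p = 0.0068, alternatives 0.0054 to 0.051), and both were called. Leaving out DKO 24 h replicate 1 ended the DKO call (log2 fold change 0.31). Spike-in normalized values at 24 h lay on both sides of the untreated ones: 152 and 161 (0 h) and 142 and 179 (24 h) in wild type, and 148 and 132 (0 h) and 177 and 91.5 (24 h) in DKO cells. At 144 h wild type had 76.05 and 66.1 spike-in normalized TPM, 45.4% of the 0 h mean (log2 fold change −1.13, SE 0.30, adjusted p = 0.0060), a call that was lost without wild-type 144 h replicate 2 (−1.03, adjusted p = 0.061; range over the alternatives 0.00023 to 0.39).

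The genotypes were also set side by side for *Setdb1*. In deposited TPM the DKO mean was 73.0%, 74.9% and 77.7% of wild type at 0, 24 and 72 h, and at each time the DKO pair was under the wild-type pair without overlap. The log2 fold changes of −0.45, −0.42 and −0.36 (SE 0.090 each) had adjusted p-values of 0.060, 0.054 and 0.053 and were not called. With values centred on each library's median the differences at 24 h (−0.44) and 72 h (−0.46) were called, with adjusted p-values of 0.046 and 0.034 (alternatives 0.046 to 1 and 0.034 to 1). With spike-in normalization the differences were −0.16, −0.32 and 0.05 (SE 0.30), of which the last has the opposite sign.

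**Figure D2:**
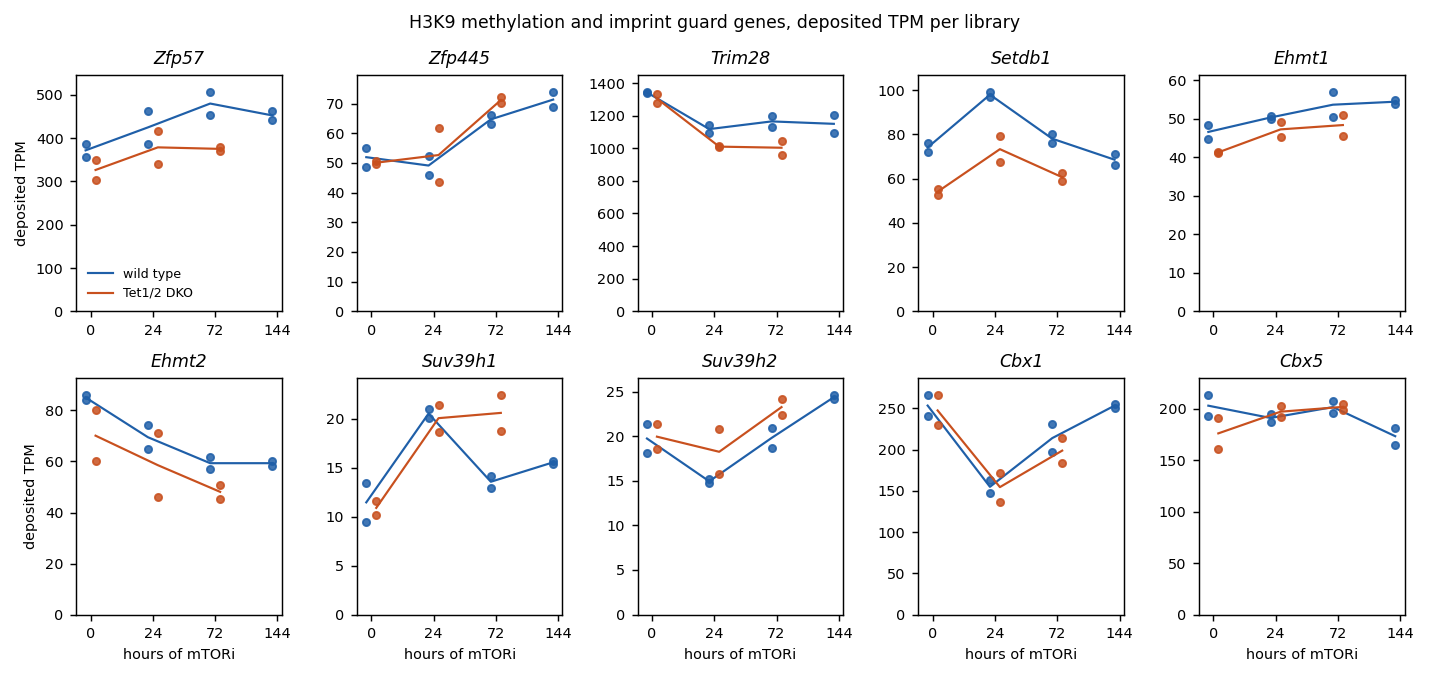
Deposited TPM (y axis, from 0) of each member against hours of mTORi (x axis, evenly spaced and not to scale), drawn as in the plot of spike-in normalized values. *Setdb1* peaks at 24 h in both genotypes with DKO below wild type, *Cbx1* dips at 24 h in both, and *Suv39h1* at 72 h is higher in DKO cells (18.8 and 22.4) than in wild type (12.95 and 14.1).

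*Ehmt2* (chromosome 17, bases 34898469 to 34914052) had the largest fitted fall of the 10 members at 144 h on the spike-in scale. Its spike-in normalized TPM were 178 and 181 in untreated wild type, 106 and 120 (24 h), 102 and 85.1 (72 h) and 64.6 and 58.3 (144 h). The pairs do not overlap between 0 h and any later time (all genes 47.8%, 55.3% and 82.1% lower). The means at 24, 72 and 144 h were 63.1%, 52.0% and 34.2% of the 0 h mean. The log2 fold change at 144 h was −1.53 (SE 0.25, adjusted p = 0.00026) and stayed called without any 1 of its libraries. At 72 h the change of −0.94 (SE 0.25, adjusted p = 0.028) was lost when any 1 library was left out (−1.07 to −0.81), and at 24 h the change of −0.66 (SE 0.25) was called only with the replicate block within each genotype (adjusted p = 0.022, alternatives 0.022 to 0.45).

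In DKO cells *Ehmt2* had 169 and 190 spike-in normalized TPM at 0 h, 103 and 96.4 (24 h) and 115 and 87.8 (72 h). The 24 h change of −0.84 (SE 0.25, adjusted p = 0.026) was called, and was lost without DKO 0 h replicate 1 (−0.93), DKO 0 h replicate 2 (−0.76) or DKO 24 h replicate 2 (−0.80). The 72 h change of −0.83 (SE 0.25, adjusted p = 0.073) was called with the replicate block within each genotype (adjusted p = 0.010, alternatives 0.010 to 0.36). In deposited TPM *Ehmt2* read 84.2 and 86.0 in untreated wild type, 74.2 and 64.8 (24 h), 61.6 and 57.1 (72 h) and 60.4 and 58.3 (144 h). Its changes at 72 h and 144 h, −0.51 each, and at 72 h in DKO cells, −0.52 (SE 0.18 each), were not called without a block and were called with the block within each genotype (adjusted p = 0.0068, 0.0063 and 0.0064; alternatives 0.0068 to 0.24, 0.0063 to 0.21 and 0.0064 to 0.33). The 2 DKO replicates differed at 0 h (60.1 and 80.1 deposited TPM) and at 24 h (46.1 and 71.0), and the DKO 72 h change was called without DKO 0 h replicate 1 (−0.73, adjusted p = 0.041).

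*Ehmt1* (chromosome 2, bases 24789928 to 24919614), which encodes the partner of EHMT2, fell less. Spike-in normalized *Ehmt1* read 94.3 and 102 in untreated wild type, 71.6 and 94.1 (24 h), 94.0 and 75.1 (72 h) and 58.8 and 53.9 (144 h), when it was 57.3% of the 0 h mean (−0.79, SE 0.28, adjusted p = 0.026). This call too was lost without any 1 of its 4 libraries (−0.86 to −0.73). In deposited TPM the pair at every later time was above the untreated pair of 44.7 and 48.5 (all genes 32.4%, 33.8% and 37.3%). It read 49.9 and 50.7 (24 h), 56.9 and 50.4 (72 h) and 55.0 and 53.9 (144 h). The largest of the changes, 0.22 (SE 0.090) at 144 h, was not called (limma adjusted p = 0.095).

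The share of *Ehmt1* within the EHMT pair is a measure that no library factor can move. *Ehmt1* was 34.7% and 36.1% of the summed TPM of *Ehmt1* and *Ehmt2* in untreated wild type, 40.2% and 43.9% (24 h), 48.0% and 46.9% (72 h) and 47.7% and 48.0% (144 h). No later library overlapped the untreated pair. In DKO cells the shares were 40.7% and 34.0% (0 h), 49.6% and 40.9% (24 h) and 50.1% in both libraries at 72 h, so that the pairs did not overlap there either, although 40.7% at 0 h and 40.9% at 24 h lay next to each other. These shares, and those of the other pairs, were not tested.

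*Suv39h1* (chromosome X, bases 8061171 to 8074760) and *Suv39h2* (chromosome 2, bases 3455815 to 3475031) had the lowest levels of the members, at 9.47 to 22.4 and 14.7 to 24.6 deposited TPM. *Suv39h1* rose in share at 24 h in both genotypes. Its deposited TPM were 9.47 and 13.4 in untreated wild type, 20.05 and 21.0 (24 h), 12.95 and 14.1 (72 h) and 15.7 and 15.4 (144 h). The 24 h pair lay above all the other wild-type libraries, and its change of 0.81 (SE 0.15, adjusted p = 0.0033, alternatives 0.0012 to 0.025) stayed called without any 1 of its libraries. DKO cells had 11.6 and 10.2 (0 h), 21.4 and 18.6 (24 h) and 22.4 and 18.8 (72 h), with called changes of 0.82 at 24 h (SE 0.15, adjusted p = 0.0038, alternatives 0.0013 to 0.032) and 0.86 at 72 h (SE 0.15, adjusted p = 0.0037, alternatives 0.0014 to 0.038).

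The 72 h level of *Suv39h1* thus remained near its 24 h level in DKO cells and not in wild type. The change against 0 h differed between the genotypes by 0.62 in deposited TPM (SE 0.22, unadjusted p = 0.017, adjusted p = 1) and by 0.75 on the spike-in scale (SE 0.49, adjusted p = 1), which was not called. DKO against wild type at 72 h was 0.56 in deposited TPM (SE 0.15, adjusted p = 0.068) and 0.98 with spike-in normalization (SE 0.35, adjusted p = 0.17). Spike-in normalized *Suv39h1* was 20.0 and 28.3 in untreated wild type, 28.7 and 38.9 (24 h), 21.4 and 21.1 (72 h) and 16.8 and 15.4 (144 h), and no wild-type or DKO time point was called on this scale without a block. At 144 h the change of −0.54 (SE 0.35) was called with the replicate block within each genotype (adjusted p = 0.042), while in deposited TPM the change of 0.43 (SE 0.15) was called with that block (adjusted p = 0.023) and without wild-type 0 h replicate 2 (0.66, adjusted p = 0.017). The alternatives of these 144 h results ran from 0.042 to 0.63 and from 0.017 to 0.39. *Gm14820*, which covers 13449 bases of *Suv39h1* on the opposite strand, averaged 26.1 deposited TPM, more than *Suv39h1* itself, and moved the other way at 24 h (31.9 to 18.4 in wild type and 33.2 to 20.2 in DKO cells). The study's methods set the strand field in STAR by intron motif, list -e alone for stringtie, and name no option for library strand. The *Suv39h1* values are therefore uncertain.

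In deposited TPM *Suv39h2* read 18.1 and 21.4 in untreated wild type, 14.7 and 15.2 (24 h), 20.9 and 18.6 (72 h) and 24.1 and 24.6 (144 h). It was lowest at 24 h and highest at 144 h, both without overlap with the untreated pair (all genes 31.6% lower and 37.3% higher). Neither change was called by limma (−0.38, SE 0.14, adjusted p = 0.064, and 0.30, SE 0.14, adjusted p = 0.14). DKO cells had 21.3 and 18.6 (0 h), 20.8 and 15.7 (24 h), and 22.3 and 24.2 (72 h), with overlap at 24 h and the 72 h pair above the untreated one. Its spike-in changes were −0.75 at 24 h and −0.70 at 144 h (SE 0.34 each) in wild type and −0.69 at 24 h in DKO cells. With all libraries and no block none was called. All were called with the replicate block within each genotype (limma adjusted p = 0.022, 0.013 and 0.025). The wild-type 24 h change was also called lower outside this block, as its alternatives reached 0.019. With 1 library left out the DKO change ran from −1.23 (without DKO 24 h replicate 1) to −0.14. *Suv39h1* went from 34.4% and 38.6% of the summed TPM of the pair in untreated wild type to 57.7% and 58.0% (24 h), and was back at 38.2% and 43.1% (72 h) and 39.3% and 38.5% (144 h). In DKO cells it was 35.2% and 35.4% (0 h), 50.8% and 54.3% (24 h) and 50.1% and 43.7% (72 h). *Dclre1c* overlaps *Suv39h2* on the opposite strand and averaged 7.51 deposited TPM.

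*Cbx1* (chromosome 11, bases 96789127 to 96808640) had the sharpest early fall. Its spike-in normalized TPM were 509 and 561 in untreated wild type, 234 and 272 (24 h), 382 and 293 (72 h) and 268 and 256 (144 h). In DKO cells they were 646 and 631 (0 h), 306 and 234 (24 h) and 466 and 369 (72 h). In both genotypes the 24 h pair lay below the 72 h pair, at 47.3% of the untreated mean in wild type and 42.3% in DKO cells, and the log2 fold changes of −1.08 (SE 0.26, adjusted p = 0.011) and −1.25 (SE 0.26, adjusted p = 0.0029) were called. The wild-type call was lost without 0 h replicate 1 (−1.15), 0 h replicate 2 (−1.01) or 24 h replicate 1 (−0.97), and the DKO call was kept without any 1 library. The changes at 72 h, −0.67 in wild type and −0.62 in DKO cells (SE 0.26 each), were not called, but were with the within-genotype replicate block and, in DKO cells, on centred values (block adjusted p = 0.024 and 0.047; alternatives 0.024 to 0.55 and 0.028 to 0.51).

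The dip of *Cbx1* at 24 h was seen in deposited TPM too, and its 144 h fall was not. Deposited TPM were 241 and 266 in untreated wild type, 163 and 147 (24 h), 231 and 197 (72 h) and 251 and 256 (144 h), the last between the 2 untreated values. In DKO cells they were 229 and 266, then 137 and 172 (24 h), and 184 and 214 (72 h). The DKO change at 72 h, −0.32, was called with the within-genotype block (adjusted p = 0.031, alternatives 0.031 to 0.44) and not without it. The 24 h changes were −0.71 in wild type (SE 0.14, adjusted p = 0.0033, alternatives 0.00070 to 0.030) and −0.68 in DKO cells (SE 0.14, adjusted p = 0.0050, alternatives 0.0011 to 0.044), and leaving out any 1 library ended neither call. With spike-in normalization the 144 h change was −1.03 (SE 0.26, adjusted p = 0.0037).

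*Cbx5* (chromosome 15, bases 103191544 to 103239816) was called lower at 144 h alone, on the spike-in scale with all libraries. It read 407 and 450 spike-in normalized TPM in untreated wild type, 280 and 347 (24 h), 323 and 309 (72 h) and 177 and 182 (144 h). The untreated pair overlapped no later one (all genes 47.8%, 55.3% and 82.1% lower). At 144 h *Cbx5* was 41.8% of its 0 h mean (−1.25, SE 0.28, limma adjusted p = 0.0021). Its deposited TPM stayed between 161 and 213 over all 14 libraries, no deposited TPM comparison was called, and the 144 h pair of 165 and 182 lay below the untreated pair of 193 and 213. *Cbx1* was 55.5% of the summed TPM of *Cbx1* and *Cbx5* in both untreated wild-type libraries, 45.5% and 44.0% (24 h), 54.2% and 48.6% (72 h) and 60.3% and 58.5% (144 h). In DKO cells it went from 58.7% and 58.2% to 40.4% and 47.3% (24 h) and 47.4% and 51.8% (72 h).

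**Figure D3:**
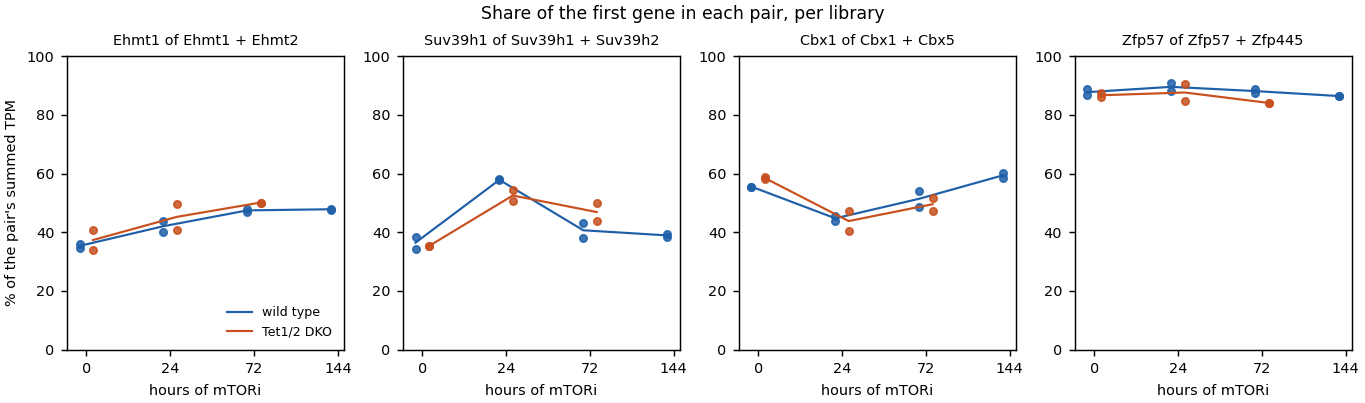
Share (%, y axis from 0 to 100) of the first gene in the summed TPM of 4 gene pairs, against hours of mTORi (x axis, evenly spaced and not to scale), with points for libraries and lines for means of 2. The *Suv39h1* share is highest at 24 h in wild type (57.7% and 58.0%), the *Cbx1* share is lowest at 24 h in both genotypes, and the *Ehmt1* share is higher at 72 h than at 0 h in both.

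Across the members, all calls on the spike-in scale were in the lower direction. Not every value was lower. *Suv39h1* stood at 139.9% of its untreated mean at 24 h in wild type, without overlap (12.1% of all genes were higher so). It stood at 128.9% and 156.9% at 24 and 72 h in DKO cells. *Setdb1* was at 102.8% at 24 h in wild type, with overlap, and *Zfp445* at 117.1% at 72 h in DKO cells. In wild type 1 of 10 members was called lower at 24 h (*Cbx1*), where 8.73% of all genes tested were, 1 of 10 at 72 h (*Ehmt2*; all genes 7.6%) and 7 of 10 at 144 h (all genes 50.5%). The 3 members not called at 144 h were *Zfp445*, *Suv39h1* and *Suv39h2*. Leaving out any 1 library of the comparison gave 0 at 72 h and 4 to 5 at 144 h, and at 24 h 0 without either untreated library or 24 h replicate 1. In DKO cells 3 of 10 were called lower at 24 h (*Trim28*, *Ehmt2* and *Cbx1*; all genes 18.7%) and 0 of 10 at 72 h (all genes 2.95%). The 24 h count was 1 without DKO 0 h replicate 1, DKO 0 h replicate 2 or DKO 24 h replicate 2 and 6 without DKO 24 h replicate 1. At 72 h *Trim28*, *Ehmt2* and *Cbx1* had an unadjusted p under 0.05 (3588 of 18232 genes did), and all 3 were called with the replicate block. No member was called higher in any of these comparisons, where 1.25%, 0.697% and 0.461% of all genes were in wild type and 0.505% and 0.713% in DKO cells. The members' median log2 fold change was −0.45, −0.38 and −0.91 in wild type and −0.46 and −0.10 in DKO cells, close to the medians of all genes given above. With the replicate block within each genotype the counts were 4, 2 and 10 in wild type and 4 and 3 in DKO cells, against 25.7%, 25.4%, 66.3%, 38.1% and 13.2% of all genes, and 0 members were higher (all genes 4.48%, 2.85%, 1.05%, 1.95% and 5.34%).

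In deposited TPM the members split. At 24 h in wild type *Cbx1* was called lower and *Setdb1* and *Suv39h1* higher (all genes 14.1% lower and 15.8% higher). At 24 h in DKO cells *Cbx1* and *Trim28* were lower and *Setdb1* and *Suv39h1* higher (all genes 13.3% and 11.6%). No member was called at 72 h in wild type (all genes 11.4% and 12.6%), where *Ehmt2*, *Zfp57* and *Zfp445* had an unadjusted p under 0.05 (6778 of 18232 genes did), and *Zfp445* alone was called, higher, at 144 h (all genes 11.7% and 15.6%). At 72 h in DKO cells *Trim28* was lower and *Zfp445* and *Suv39h1* higher (all genes 9.06% and 17.2%). With the replicate block, members lower and higher were 2 and 2, 1 and 1, and 1 and 2 in wild type and 2 and 2, and 3 and 2 in DKO cells (all genes 17.7% and 19.3%, 15.2% and 16.8%, 15.6% and 19.9%, 16.6% and 15.3%, and 12.3% and 23.5%). Over the 45 pairs of members, Pearson's r across the 14 libraries had a median of 0.77 on the spike-in scale, where all genes share 1 factor a library, and of 0.034 in deposited TPM, with a range of −0.86 to 0.83. The libraries are those of 7 groups, and r is given as a description.

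**Figure D4:**
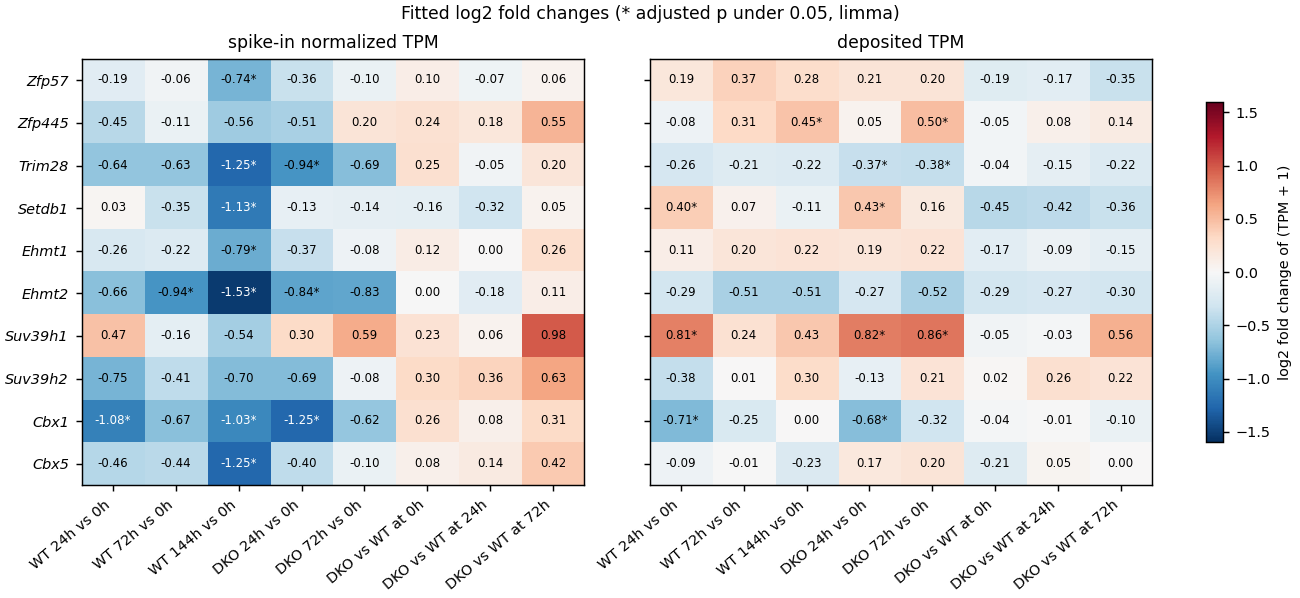
Log2 fold changes of the 10 members (rows) in 8 comparisons (columns) with spike-in normalized TPM (left) and deposited TPM (right); blue is lower and red higher, and asterisks mark an adjusted p under 0.05. The left panel holds calls in the lower direction alone (7 at 144 h), and the right panel holds calls in both directions.

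Between the genotypes 0 of 10 members were called at 0, 24 or 72 h on either scale. With limma on spike-in normalized TPM, 0.0165%, 0.0329% and 0.0274% of all genes were called lower and 0.0274%, 0.011% and 0.302% higher, and in deposited TPM 0.176%, 0.79% and 0.845% lower and 0.422%, 0.581% and 3.17% higher. An unadjusted p under 0.05 was reached by *Suv39h1* at 72 h on the spike-in scale, and in deposited TPM by *Setdb1* at each time and by *Zfp57* and *Suv39h1* at 72 h. Of all 18232 genes, 1523, 755 and 4193 reached it on the spike-in scale at 0, 24 and 72 h, and 2530, 2699 and 3871 in deposited TPM. Apart from *Setdb1*, *Trim28* was the only member whose DKO pair was lower without overlap at all 3 times in deposited TPM (4.6% of all genes were), at 97.2%, 90.4% and 86.1% of the wild-type mean. With spike-in normalization it was at 119.7%, 98.5% and 115.7%, with both DKO libraries higher at 0 h (52.9% of all genes). Responses in DKO and wild-type cells differed past the threshold for 0 of 10 members at 24 h and at 72 h on either scale (all genes 0% to 0.00548%). With an unadjusted p under 0.05 there were 0 of 10 at both times on the spike-in scale (223 and 181 of 18232 genes), and in deposited TPM 0 at 24 h and 1 (*Suv39h1*) at 72 h (706 and 676 genes). A p above the threshold with 2 libraries a group does not show that the responses were alike.

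The members were set beside 40 further genes of H3K9 methylation and imprint protection, of which 38 passed the filter. Spike-in normalized values of 27 of 38 were called lower at 144 h in wild type and 0 higher (all genes 50.5% and 0.461%), and in deposited TPM 1 was lower and 7 higher (all genes 11.7% and 15.6%). Of 10 methyltransferase and partner genes, 0 were lower and 2 higher in deposited TPM at each wild-type time (all genes 15.8%, 12.6% and 15.6% higher): *Wiz*, which encodes a zinc finger partner of the EHMT dimer, at 0.46, 0.40 and 0.54, and *Prdm16* at 0.88, 1.01 and 0.93. In DKO cells 3 and 2 were higher at 24 and 72 h (all genes 11.6% and 17.2%): *Prdm16* at both times (0.87 and 1.09), *Zfp644* at both (0.45 and 0.61) and *Wiz* at 24 h (0.40). *Wiz* was lower in DKO cells than in wild type at 72 h (−0.48). *Prdm16* itself stayed at or under 4.24 TPM.

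H3K9 demethylase genes encode the erasers of the mark. Of 9 tested, 3, 4 and 5 were called higher in deposited TPM at 24, 72 and 144 h in wild type and 3 and 4 at 24 and 72 h in DKO cells (all genes 15.8%, 12.6% and 15.6%, and 11.6% and 17.2%), and *Kdm4a* alone was called lower, at 72 h (−0.30 in wild type and −0.28 in DKO cells). *Kdm3b* went from 52.2 ± 3.16 to 101 ± 3.38 deposited TPM at 24 h (SD, n = 2; 0.94, SE 0.083, limma adjusted p = 7.0e-05) and *Jmjd1c* from 131 ± 9.01 to 222 ± 0.47 at 144 h (SD, n = 2; 0.76). With spike-in normalization 5 of 9 were called lower at 144 h, led by *Kdm4a* (−1.20), and 0 higher at any time. *Kdm4b* was the 1 gene of the 38 called lower in DKO cells at all 3 times in deposited TPM, with changes of −0.72, −0.62 and −0.89. The spike-in scale gave 0 calls. Its spike-in normalized means there were 17.3, 16.6 and 18.4 in DKO cells. Those of wild type were 24.4, 24.4 and 26.6.

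Of 5 reader and HUSH complex genes, 2, 2 and 0 were called lower in deposited TPM at 24, 72 and 144 h in wild type and 2 and 1 at 24 and 72 h in DKO cells (all genes 14.1%, 11.4% and 11.7%, and 13.3% and 9.06%), and 0 higher. With spike-in normalization 1, 1 and 4, and 2 and 0, were lower (all genes 8.73%, 7.6% and 50.5%, and 18.7% and 2.95%). *Cbx3*, which encodes HP1γ, was lower at 24 h, as *Cbx1* was. Its deposited TPM went from 180 ± 11.3 to 112 ± 2.86 in wild type and from 179 ± 8.83 to 120.03 ± 1.504 in DKO cells (SD, n = 2 each), and the changes of −0.67 and −0.57 were called, as were those of −1.04 and −1.14 on the spike-in scale. Of 8 heterochromatin chaperone and remodeller genes, 7 were called lower at 144 h on the spike-in scale (all genes 50.5%) and 0 in deposited TPM (all genes 11.7%). *Uhrf1*, which couples H3K9 methylation to maintenance of DNA methylation, and *Hells* were called lower at 24 h in deposited TPM in wild type (−0.75 and −0.46) and in DKO cells (−0.63 and −0.51). Of 6 tested KRAB zinc finger and imprint protector genes, 4 were called lower at 144 h on the spike-in scale (all genes 50.5%) and 1 in deposited TPM (all genes 11.7%). *Dppa3*, which protects imprints in the early embryo, was called lower at 144 h (−2.89 in deposited TPM and −3.87 on the spike-in scale); its untreated wild-type libraries differed widely, at 7.33 and 28.7 TPM.

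Of 30 imprinted genes tested, 17 were called lower and 1 higher at 144 h in wild type on the spike-in scale (all genes 50.5% and 0.461%), and 9 lower and 6 higher in deposited TPM (all genes 11.7% and 15.6%). *Meg3*, a maternally expressed noncoding RNA, rose from 97.7 ± 31.1 to 356 ± 49.0 deposited TPM (SD, n = 2; 1.89), and *Plagl1*, *Igf2* and *H19* fell in deposited TPM (−1.98, −1.89 and −2.55). The untreated wild-type libraries differed widely in *H19*, at 21.6 and 152 deposited TPM, and its adjusted p was 0.045 by limma. *Grb10*, a growth factor receptor adaptor gene, had 45.0 ± 5.38 deposited TPM in untreated wild type and 12.8 ± 0.89 in untreated DKO cells (SD, n = 2 each), and was called lower in DKO cells at 0, 24 and 72 h in deposited TPM (−1.73, −1.72 and −1.51) and at none with spike-in normalization. Its spike-in normalized means were nevertheless 33.1 against 94.9 at 0 h, 8.12 against 27.9 at 24 h and 10.46 against 26.9 at 72 h. Total RNA of a gene does not separate its parental copies, so these values say nothing on imprinting itself.

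**Figure D5:**
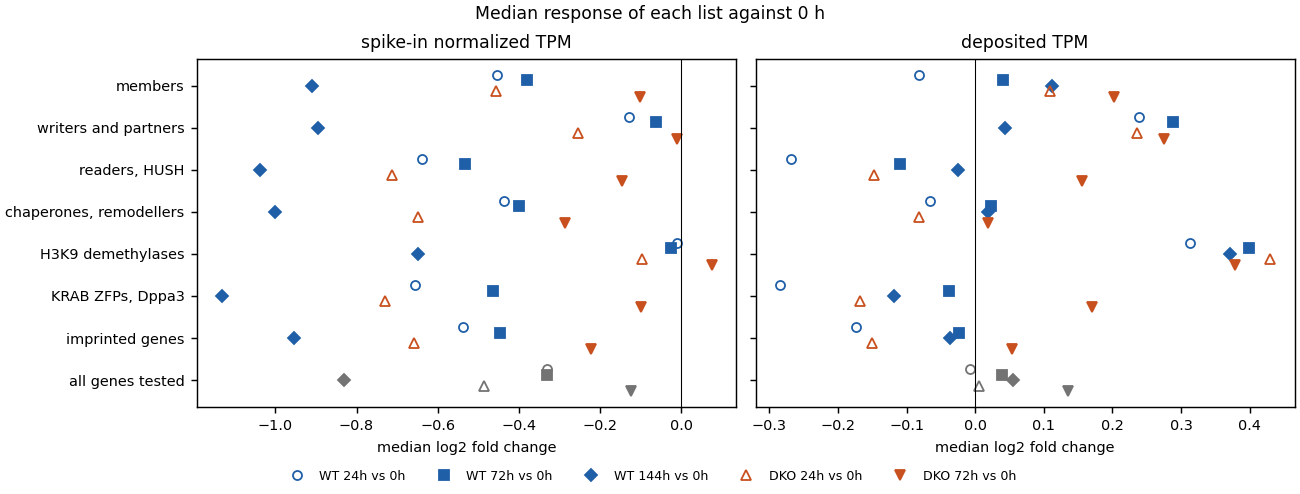
Median log2 fold change (x axis) of the members, of 6 further gene lists and of all genes tested (grey), for 5 comparisons with 0 h, on the spike-in scale (left) and in deposited TPM (right). Medians on the left lie mostly below 0 with the 144 h diamonds lowest, and on the right the demethylases lie above 0 in every comparison (0.31 to 0.43).

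The genes whose deposited TPM over the 14 libraries were most like those of *Zfp57* were *Fam196b* (Pearson's r 0.96), *Midn* (0.95) and *Ifngr2* (0.95), on the log2 scale and among 18231 genes. *Ehmt1* ranked 111 (0.83) and was the nearest of the other members, and *Trim28* ranked 11763 (−0.23). Group means were low for *Fam196b* (0.34 to 2.24 deposited TPM) and *Ifngr2* (1.55 to 4.57), and 59.3 to 88.3 for *Midn*. The libraries share groups and times, so these values are a description.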

How the data were processed

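RNA of sorted ES cells, with ERCC RNAs used as spike-ins, was depleted of ribosomal RNA and sequenced. Adapter trimming by the authors (cutadapt), alignment to mm10 (STAR) and quantification of GENCODE VM19 genes (stringtie) gave the deposited TPM, whose sum is 1000000 per library. The submitters' processing notes name cutadapt 2.4, STAR 2.7.3a and StringTie 2.0. Entries of 1 gene identifier were summed. The deposited TPM hold 0 ERCC entries, so each library was multiplied by the median ratio of the study's spike-in normalized table, held in part, to the deposited TPM (482 to 539 genes per library). Only ratios were taken from that table. TPM keep no read counts, and depth was not in hand: 28306 to 29927 genes were above 0.

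All 7 groups were fitted in limma 3.58.1 (R 4.3.3) with a mean-variance trend on log2(TPM + 1), for genes whose spike-in normalized TPM averaged 1 or more, in 10 comparisons. The script was tested on simulated data. The authors used DESeq2 on counts, which TPM do not allow. Time points of a replicate were processed in parallel, per the study's reporting summary. The correlation of replicate differences was 0.222 to 0.341 in DKO pairs of groups and 0.0622 to 0.398 in wild type (over 0.1 in 3 of 3 and 5 of 6). Between genotypes it ran from −0.501 to 0.116 over 12 pairs of groups and was over 0.1 in 1. It was −0.43 between the untreated groups and −0.50 between the 24 h groups, and the cause was not tested. The replicate numbers were therefore taken as pairs within a genotype. A replicate block within each genotype is given where it changed a call. Such a block cannot test DKO against wild type.

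The members and gene lists were chosen with earlier results of these data known. The text names the members, *Tet1* and *Tet2*, at most 4 called genes of each other list by size of change (*Kdm4b*, *Grb10* and the overlapping genes were also chosen after their values were seen), and the 3 genes most like *Zfp57*. Of the H3K9 readers, 5 of 7 symbols were in the files. Sequences and starts come from RefSeq (GRCm38.p6). Alternatives were deposited TPM, centring on each library's median, a pseudocount of 0.1, no filter, no trend, the blocks and leaving out each library.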

Additional observations from a re-analysis of the deposited data

How the results depend on the processing

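The spike-in factors decided the direction most. In deposited TPM members called lower and higher were 1 and 2 (wild type 24 h), 0 and 0 (72 h), 0 and 1 (144 h), 2 and 2 (DKO 24 h) and 1 and 2 (DKO 72 h). Centred on each library's median they were 3 and 2, 1 and 0, 4 and 0, 2 and 2, and 3 and 1 (all genes 17.1% and 13.6%, 15.9% and 10.2%, 15.2% and 13.7%, 16.4% and 11.2%, and 16.6% and 11.5%), and 1 was lower in DKO against wild type at 24 h and 1 at 72 h (all genes 0.773% and 0.900%). The replicate block within each genotype gave 4, 2, 10, 4 and 3 lower, and changed no call other than those printed above. A block across all libraries gave counts within 1.5 times. Without the trend 0 were lower at 72 h in wild type (all genes 5.57%), and without the filter 1 in DKO cells at 72 h (1.07%). Leaving out 1 library gave 0 to 1 lower at 24 h, 0 at 72 h and 4 to 5 at 144 h in wild type (4 without 144 h replicate 2), and 1 to 6 at 24 h in DKO cells (1 without 0 h replicate 1, 0 h replicate 2 or 24 h replicate 2, and 6 without 24 h replicate 1). A library left alone in its group was assumed to vary like the other groups.

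At 144 h the sign turned, in deposited TPM and centred, for *Zfp57* (0.28 and 0.091), *Zfp445* (0.45 and 0.27), *Ehmt1* (0.22 and 0.043), *Suv39h1* (0.43 and 0.30) and *Suv39h2* (0.30 and 0.14), and in deposited TPM for *Cbx1* (0.0011). *Setdb1* turned at 24 h in DKO cells (0.43 and 0.32, and −0.61 to 0.34 when 1 library was left out, the highest without DKO 24 h replicate 2), in DKO against wild type at 72 h (−0.36 and −0.46, and −0.27 to 0.37 with 1 library left out, the lowest without DKO 72 h replicate 1) and at 24 h (−0.80 to 0.15, the highest without DKO 24 h replicate 2), and at 24 h in wild type (−0.14 to 0.20, with −0.0098 without 0 h replicate 1 and the lowest without 24 h replicate 2). *Suv39h1* turned at 24 h in DKO cells (−0.15 to 0.75, the lowest without 24 h replicate 1) and *Zfp445* at 72 h (−0.093 to 0.49, the lowest without 72 h replicate 1). The scaling itself makes the turns seen in deposited TPM or centred values, those of *Setdb1* among them. The cause of the turns seen with 1 library left out was not tested. Deposited TPM with a block or without 1 library were chosen after seeing the data. TPM carry no depth, so counting error cannot be given for *Suv39h1* or any other low gene.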

Other observations

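The 14 spike-in factors each equal 76 divided by a whole number between 27 and 76, within 0.001. The origin of these numbers was not given in the sources used here.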
